A study of Danio rerio with 20 samples.

Results

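A set of 7 microRNAs known from the nervous system, measured by the probes dre-miR-9, dre-miR-9*, dre-miR-124, dre-miR-128, dre-miR-132, dre-miR-138 and dre-miR-212, was followed through whole zebrafish of 4 genotypes and 2 ages. The 7 probes were taken by name from the 219 mature zebrafish microRNA probes of the array; the rule uses no measured value, but it was set with earlier results of these data known. All 7 were among the 167 probes bright enough to be tested, but miR-212 passed only through the sapje group at 30 days post fertilisation (dpf), where it was above background in 3 of 3 samples. The study compared fish carrying either of 2 dystrophin mutations, sapje and sapje-like, with wild types of the same cohorts, named SW for the sapje cohort and SLW for the sapje-like cohort. Dystrophin anchors the cytoskeleton of the muscle fibre to the matrix around it, and both lines are used as models of Duchenne muscular dystrophy. Every group was of the TL strain and was kept on the same diet. At 5 dpf each genotype had 2 samples, and at 30 dpf each had 3. RNA came from whole fish, 10 per cohort according to the labels, and each sample was read in 1 dye channel of a 2-colour array. The sources used here do not say whether the samples of a group were separate pools of fish, so the p-values measure the spread between these samples, which may be technical. The labels give no clone or allele beyond the line names.

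MicroRNAs are short RNAs that pair with messenger RNAs, mainly through the bases near their 5′ end known as the seed, and lower the output of those messengers. miR-9 is known from neural progenitors, where it takes part in the timing of neurogenesis, and miR-9* is made from the other arm of the same hairpin. miR-124 is the typical microRNA of differentiated neurons. miR-128 is enriched in the vertebrate brain, and miR-132 and miR-212 are made from one transcript in mammals and respond there to neuronal activity. miR-138 is known from dendritic spines in the rat and from patterning of the zebrafish heart. Whole fish give no separate reading of the nervous system, so the name of the group could not be checked against a dissected tissue. In such bulk samples, fewer cells of a type and less RNA per cell cannot be told apart.

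The sequences the probes were designed to detect are shown because the seed decides which of the 7 microRNAs could be read as one family. They are taken from the deposited scanner files and written 5′ to 3′, with the seed (bases 2 to 8) in capitals.
miR-9: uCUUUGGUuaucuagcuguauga
miR-9*: uAAAGCUAgauaaccgaaagu
miR-124: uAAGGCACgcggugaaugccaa
miR-128: uCACAGUGaaccggucucuuuu
miR-132: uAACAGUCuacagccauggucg
miR-138: aGCUGGUGuugugaaucaggcc
miR-212: uAACAGUCuacagucauggcu

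miR-132 and miR-212 carried the same seed, and no other pair among the 7 did. Counted from 1 at the 5′ end, they were the same at 18 of the 21 positions they share, and the differences from miR-132 to miR-212 were C14U, U20C and C21U. Cross-hybridisation between these 2 probes was not tested. The closest other mature sequence to miR-124 on the array was miR-461, with the same base at 16 positions. The RefSeq gene table for assembly GRCz12tu lists 7 genes for miR-9, 6 for miR-124, 3 for miR-128 and 2 each for miR-132, miR-138 and miR-212, and an array probe reads the summed product of all copies that give the same mature RNA. In that table both miR-132 genes have a miR-212 gene as their nearest microRNA neighbour.

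Values are normalised log2 intensities, and differences are log2 fold changes from limma with their standard errors. P-values were adjusted by the Benjamini-Hochberg method over all 167 tested probes, and a difference is said to pass when its adjusted p is below 0.05. Between 105 and 173 probes per sample were above background, and the number of arrays limits the precision. Wild type SW replicate 2 at 5 dpf and sapje-like replicate 3 at 30 dpf were the dimmest, with 105 probes each above background. In that sapje-like sample miR-128 was the only one of the 7 above background, and in sapje-like replicate 2 at 30 dpf miR-9*, miR-124, miR-138 and miR-212 were not. The mean of 4 gut and liver microRNAs set wild type SLW replicate 8 at 30 dpf apart, at 11.85 against 7.17 and 7.26 in the other samples of its group. The labels do not say which samples shared an array. Spot residuals placed the 20 samples on 10 inferred arrays, each with a mutant and the matching wild type, some pairs with little margin. Dye was a term in the main fit, and the dye differences of the 7 probes lay between -0.11 and 0.26, none past the threshold. Every inferred array held fish of 1 age, so age and array cannot be told apart.

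Levels at 5 and 30 dpf were compared to ask how these microRNAs changed as the fish grew. Of the 7, 5 were lower at 30 dpf over all 4 genotypes, and none was higher: miR-9* and miR-9 fell most, followed by miR-124, miR-138 and miR-132. miR-128 and miR-212 did not pass. Among all tested probes 60.5% passed in this comparison, 30.5% higher and 29.9% lower at 30 dpf, so a change with age was common on the array. The median difference of the 7 probes was -0.88, against 0.02 over all 167.

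miR-9* ran from 10.20 to 11.39 with a median of 10.93 in the 8 samples at 5 dpf, and from 6.56 to 7.93 with a median of 7.39 in the 12 samples at 30 dpf. It fell by 3.57 ± 0.14 (11.9-fold, adjusted p = 5.19e-11), the largest fall of all 167 tested probes. miR-9, the partner strand, ran from 10.64 to 13.08 (median 11.66) at 5 dpf and from 7.29 to 9.68 (median 8.04) at 30 dpf. It fell by 3.46 ± 0.25 (11-fold, adjusted p = 2.86e-08), the next largest fall. For both strands every sample at 30 dpf lay below every sample at 5 dpf. In the authors' deposited table, which has its own background and scaling, miR-9* read 1477 in wild type SW replicate 1 and 2935 in wild type SLW replicate 1 at 5 dpf. The same table gave miR-9* values of 21.3 in sapje-like replicate 2 and 187 in wild type SW replicate 4 at 30 dpf, the lowest and highest of that age.

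miR-124 ran from 7.51 to 9.21 (median 8.58) at 5 dpf and from 6.72 to 7.10 (median 6.85) at 30 dpf. It fell by 1.52 ± 0.14 (2.87-fold, adjusted p = 2.61e-07), the 16th largest fall of the 167. The 12 older samples again lay below the 8 younger ones, a complete separation found for 11.4% of tested probes and, among the 7, for miR-9, miR-9* and miR-124. The older samples were packed closely near the dim end of the scale, with an SD of 0.10 against 0.57 at 5 dpf. Processing moved the size of this fall: the log2 difference was -2.69 in the authors' deposited table and -2.43 with the median of the empty spots subtracted. Both alternatives set values below 32 to 32, a floor that some deposited miR-124 values at 30 dpf fell under. The call held in both.

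miR-138 ran from 7.07 to 8.59 (median 7.98) at 5 dpf and from 6.77 to 7.23 (median 7.01) at 30 dpf. It fell by 0.88 ± 0.13 (1.84-fold, adjusted p = 4.85e-05), and the 2 ages overlapped through 1 young sample, sapje-like replicate 1. miR-132 ran from 7.18 to 8.35 (median 7.66) at 5 dpf and from 6.83 to 7.63 (median 7.0) at 30 dpf. It fell by 0.66 ± 0.14 (1.58-fold, adjusted p = 0.000636), the smallest fall of those that passed, and its ages overlapped too. The differences of miR-138 and miR-132 were -1.69 and -1.37 in the authors' deposited table, with the same floor of 32.

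miR-128 was at 8.69 to 9.45 (median 9.17) at 5 dpf and at 8.54 to 9.55 (median 8.99) at 30 dpf, with all 20 samples above background. Its difference of -0.13 ± 0.11 did not pass (adjusted p = 0.309). miR-212 was above background in 2 of 8 samples at 5 dpf and 4 of 12 at 30 dpf, between 6.54 and 7.02 in all, so no fold is given for it. Its mean differed by -0.05 ± 0.07 (adjusted p = 0.517).

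**Figure D1:**
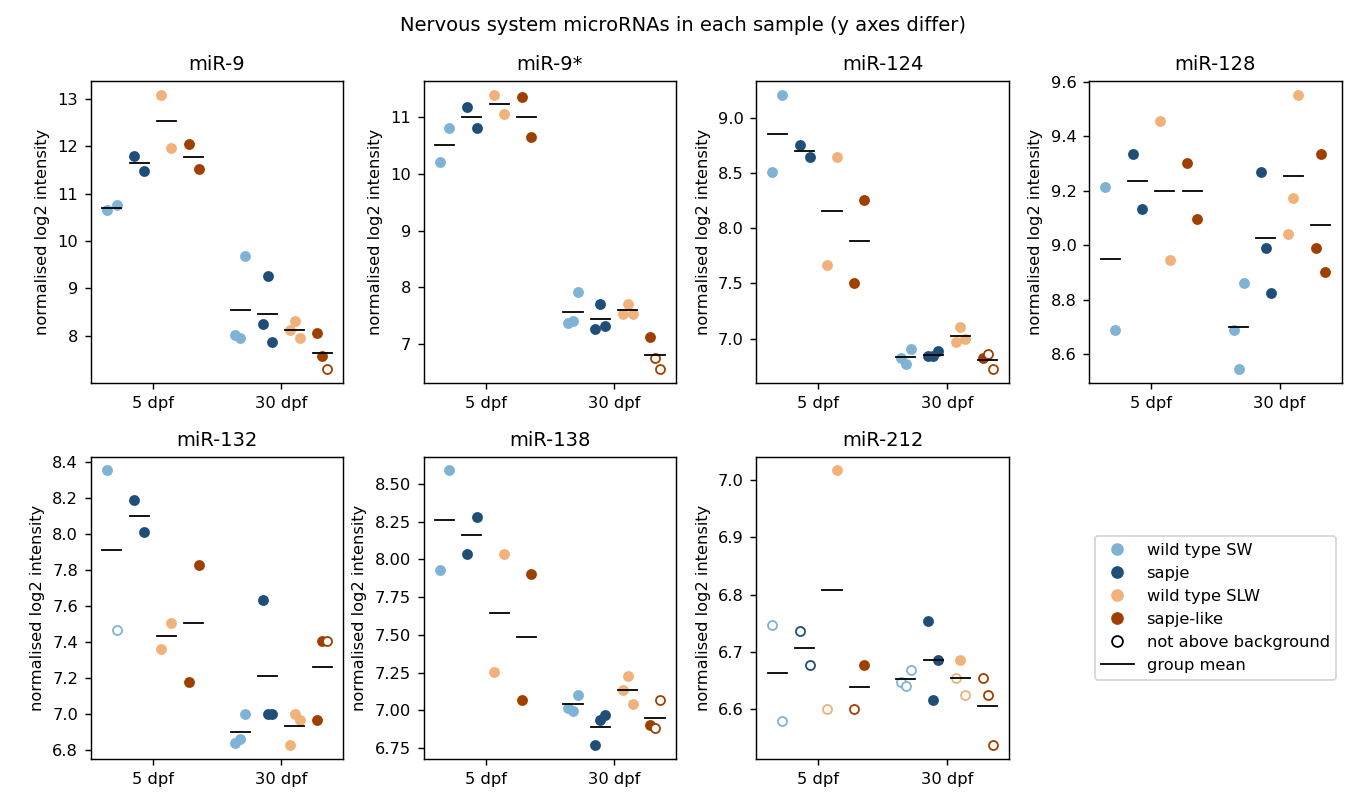
Normalised log2 intensity (y axis, a separate range for each microRNA) of the 7 microRNAs in each of the 20 samples, by age and genotype; lines are group means and open circles are samples in which the probe was not above background. The 30 dpf samples of miR-9, miR-9* and miR-124 lie below every 5 dpf sample, while the ages overlap for the other microRNAs.

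The 8 other microRNAs of the nervous system that were tested did not fall together. Of 18 listed, 17 were on the array and 8 were tested, of which 2 were higher and 3 lower at 30 dpf, with a median difference of 0.01. Those lower included miR-218b and miR-218a, known from motor neurons, which differed by -2.10 ± 0.13 (adjusted p = 8.52e-09) and -1.97 ± 0.15 (adjusted p = 5.19e-08). The largest rises on that list were those of miR-125b at 0.93 and miR-125c at 0.78, and miR-129* was at -0.51. Listed probes on the array but not tested included miR-137, miR-153a and miR-219. Both tested microRNAs of the sensory organ list were lower, miR-182 at -0.99 ± 0.14 (adjusted p = 2.6e-05) and miR-183 at -0.86 ± 0.15 (adjusted p = 0.000163); these are known from sensory cells of the eye and ear.

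Markers of other tissues moved with age as well. miR-451, of red blood cells, rose by 2.03 ± 0.21 (adjusted p = 1.21e-06), the single blood probe tested. miR-1, of striated muscle, rose by 1.08 ± 0.14 (adjusted p = 1.35e-05), 1 of 6 muscle probes higher while 1 was lower. In the skin and epithelium list 0 of 6 were higher and 3 lower, and in the gut and liver list 1 of 4 was higher and none lower. The 1 higher was miR-122 at 1.57, while the median difference of that list was -0.74. With both wild types together 0 of the 4 were higher and 1 lower, and with both mutants together 1 was higher and 0 lower. The part of tissue makeup in the falls of the 7 microRNAs was not tested.

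**Figure D2:**
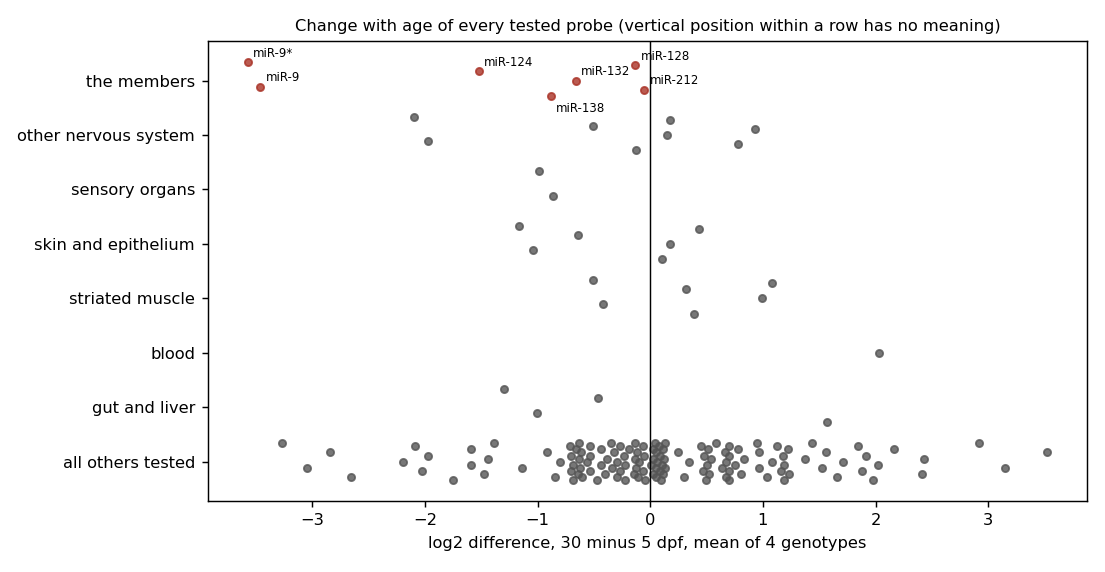
Log2 difference between 30 and 5 dpf over 4 genotypes (x axis) for all 167 tested probes, with 1 row for each microRNA list and 1 point for each probe; vertical position within a row has no meaning. miR-9* and miR-9 lie at the far left at -3.57 and -3.46, while the other nervous system probes lie on both sides of 0.

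Within single genotypes the falls of miR-9, miR-9* and miR-124 passed in all 4. For miR-9 at 5 dpf the samples read 10.64 and 10.76 in wild type SW, 11.79 and 11.48 in sapje, 13.08 and 11.96 in SLW wild types and 12.04 and 11.52 in sapje-like. At 30 dpf they read 8.01, 7.96 and 9.68 in wild type SW, 8.25, 9.27 and 7.86 in sapje, 8.12, 8.32 and 7.96 in SLW wild types and 8.06, 7.57 and 7.29 in sapje-like. Wild type SW was the lowest group at 5 dpf, with no overlap with the next group, sapje, and the other 3 groups of that age overlapped. Such steps were not counted over all probes.

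The difference of miR-9 was -2.20 ± 0.50 in wild type SW (adjusted p = 0.00237) and -3.13 ± 0.50 in sapje (adjusted p = 0.000259). In wild type SLW it was -4.43 ± 0.50 (adjusted p = 1.13e-05) and in sapje-like -4.10 ± 0.50 (adjusted p = 2.81e-05). Each of the 4 falls exceeded the spread between samples, and the 2 groups of the sapje-like cohort had the larger ones.

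miR-9* at 5 dpf read 10.20 and 10.81 in wild type SW, 11.18 and 10.81 in sapje, 11.39 and 11.06 in SLW wild types and 11.34 and 10.64 in sapje-like, and these groups overlapped in turn. At 30 dpf it read 7.38, 7.40 and 7.93 in wild type SW, 7.27, 7.72 and 7.32 in sapje, 7.53, 7.72 and 7.53 in SLW wild types and 7.13, 6.75 and 6.56 in sapje-like. Its differences were -2.92 in wild type SW, -3.57 in sapje, -3.61 in wild type SLW and -4.19 in sapje-like, each ± 0.27, with adjusted p-values of 5.27e-06, 8.79e-07, 2.54e-07 and 5.76e-08. Sapje-like had the lowest readings at 30 dpf, but miR-9* was above background in 1 of its 3 samples, so its level there and the size of its fall are less certain than in the other 3 groups, which overlapped.

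For miR-124 at 5 dpf the samples read 8.51 and 9.21 in wild type SW, 8.75 and 8.65 in sapje, 7.66 and 8.65 in SLW wild types and 7.51 and 8.25 in sapje-like. At 30 dpf every sample read between 6.72, in sapje-like replicate 3, and 7.10, in wild type SLW replicate 5. The differences were -2.01 ± 0.27 in wild type SW (adjusted p = 4.29e-05), -1.86 in sapje (0.000149), -1.12 in wild type SLW (0.00448) and -1.10 in sapje-like (0.00662), with the same standard error in each. In the sapje-like cohort the calls rested on the second replicates at 5 dpf: without that of wild type SLW the difference was -0.64 (adjusted p = 0.0915), and without that of sapje-like it was -0.64 (adjusted p = 0.151). Both calls were also lost when only the groups compared were fitted, with adjusted p-values of 0.103 and 0.0551, and that in sapje-like with median scaling (-0.83, adjusted p = 0.0688).

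miR-132 and miR-138 passed in wild type SW and sapje, and not in the sapje-like cohort. miR-138 read 7.93 and 8.59 in wild type SW, 8.04 and 8.29 in sapje, 7.25 and 8.04 in SLW wild types and 7.07 and 7.90 in sapje-like at 5 dpf, and between 6.77 and 7.23 in every sample at 30 dpf. It differed by -1.21 ± 0.27 in wild type SW (adjusted p = 0.00209) and -1.28 in sapje (0.00222), and by -0.50 in wild type SLW (0.157) and -0.54 in sapje-like (0.134). Left without the first 5 dpf replicate of its own group, miR-138 differed by -0.93 in wild type SLW and -1.06 in sapje-like, each from a lone young sample. With the authors' deposited table in place of the scanner values it passed in sapje-like too (-1.29, adjusted p = 0.0214).

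miR-132 read 8.35 and 7.47 in wild type SW, 8.19 and 8.01 in sapje, 7.36 and 7.51 in SLW wild types and 7.18 and 7.82 in sapje-like at 5 dpf. At 30 dpf it read 6.84, 6.86 and 7.0 in wild type SW, 7.63, 7.0 and 7.0 in sapje, 6.83, 7.0 and 6.97 in SLW wild types and 6.97, 7.40 and 7.40 in sapje-like. It fell by 1.03 ± 0.27 in wild type SW (adjusted p = 0.00679) and by 0.87 ± 0.27 in sapje (adjusted p = 0.0221). Its differences in wild type SLW and sapje-like were -0.52 (adjusted p = 0.15) and -0.23 (adjusted p = 0.580), and with the authors' deposited table miR-132 passed in wild type SLW (-1.30, adjusted p = 0.0288). The wild type SW call was lost without that group's replicate 1 at 5 dpf (-0.58, adjusted p = 0.151), the brighter of its 2 young samples. In sapje it was lost with 3 other settings and without either 5 dpf sample or replicate 2 or 3 at 30 dpf, at adjusted p-values up to 0.196.

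Of the 7 microRNAs, 5 were thus lower and 0 higher at 30 dpf in wild type SW, where 54.5% of all tested probes passed, 26.3% higher and 28.1% lower. In sapje 5 were lower and 0 higher, against 35.3% of all probes, 17.4% higher and 18% lower. In wild type SLW 3 were lower and 0 higher, against 41.3%, 23.4% higher and 18% lower. In sapje-like 3 were lower and 0 higher, against 32.3%, 15% higher and 17.4% lower. With both wild types together 5 were lower and 0 higher, against 58.1%, 29.9% higher and 28.1% lower, and with both mutants together 5 and 0, against 50.9%, 25.7% higher and 25.1% lower. A call in one genotype and not in another is no difference between them, and that difference was tested directly.

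**Figure D3:**
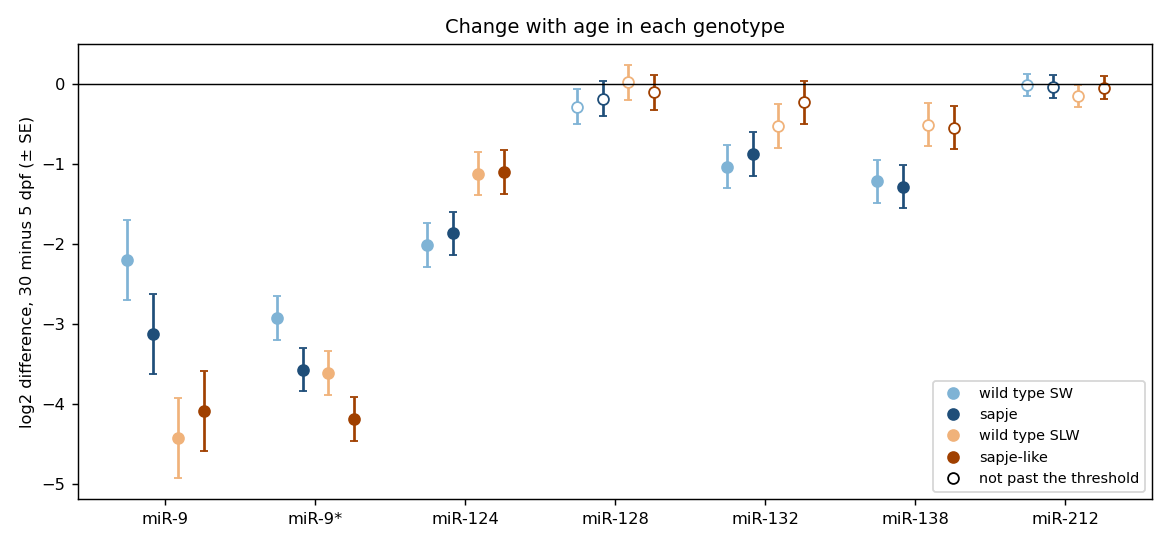
Log2 difference between 30 and 5 dpf (y axis, with standard errors as bars) of each microRNA in each genotype; filled points passed the threshold and open points did not. miR-9 and miR-9* fell in all 4 genotypes, and miR-132 and miR-138 passed in wild type SW and sapje alone.

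The comparison of the sapje-like cohort with the sapje cohort, mutants and wild types together, was added after the values were seen. At 5 dpf miR-124 was at -0.76 ± 0.21 (adjusted p = 0.0547), miR-138 at -0.65 ± 0.21 (0.101), miR-132 at -0.54 ± 0.21 (0.200) and miR-9 at 0.98 ± 0.39 (0.200) in the sapje-like cohort relative to the other. With limma 0 of 7 passed, where 4.19% of all probes did, and 4 of 7 had an unadjusted p below 0.05. Of all 167 probes, 25 had such an unadjusted p. At 30 dpf 0 of 7 passed against 1.2% of probes, and 1, miR-128, had an unadjusted p below 0.05 (0.30 ± 0.14, adjusted p = 0.317). At that age 26 of the 167 probes had one.

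The change with age differed between the cohorts by -1.60 ± 0.50 for miR-9 (adjusted p = 0.0705), a larger fall in the sapje-like cohort, and by 0.83 ± 0.27 for miR-124 (adjusted p = 0.0775), a smaller one. Here too 0 of 7 passed, against 5.99% of all probes, with 4 of 7 at an unadjusted p below 0.05. Of all 167 probes, 37 had such an unadjusted p. Within the sapje-like cohort at 5 dpf both first replicates, which the spot residuals placed on 1 array, had lower miR-124 and miR-138 than both second replicates. Without wild type SLW replicate 2 at 5 dpf, miR-9, miR-124 and miR-138 passed in this comparison of age changes, at adjusted p-values of 0.0445, 0.0111 and 0.0330. Without sapje-like replicate 2 of that age the same 3 passed, at 0.0458, 0.0191 and 0.0206.

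The 2 wild types were compared with each other to show what the cohorts differ by without a mutation. At 5 dpf both wild type SLW samples had more miR-9 than both of wild type SW, by 1.82 ± 0.55, and did not pass (adjusted p = 0.0957). miR-9* was at 0.72 ± 0.30 and miR-124 at -0.70 ± 0.30, both with an adjusted p of 0.289. With limma 0 of 7 passed, against 1.8% of all probes, and these 3 had an unadjusted p below 0.05. Of all 167 probes, 26 had such an unadjusted p. Without wild type SLW replicate 2 at 5 dpf the differences were 2.30 for miR-9, -1.19 for miR-124 and -1.02 for miR-138. A lone sample remained in that group, so no conclusion is drawn from this fit. At 30 dpf miR-128 read 8.69, 8.54 and 8.86 in wild type SW and 9.04, 9.17 and 9.55 in wild type SLW, with no overlap. That difference of 0.56 ± 0.20 did not pass (adjusted p = 0.539), nor did any of the other 6, against 0.599% of all probes. Separations between the wild types were not counted over all probes.

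The mutants were set against wild types within their cohorts, the question the study's title poses. At 5 dpf 0 of the 7 microRNAs passed in sapje (limma, 1.8% of all probes), 0 in sapje-like (0.599%) and 0 with both mutants together (1.2%). None of the 7 had an unadjusted p below 0.05 in any of the 3, where 15, 6 and 16 of all 167 probes did. miR-9 was higher in both sapje samples than in both wild type SW samples, a separation not counted over all probes. It differed by 0.93 ± 0.55 with a 95% interval of -0.24 to 2.11 (adjusted p = 0.633). In sapje-like it was at -0.74 ± 0.55 (-1.92 to 0.43, adjusted p = 0.848), and the groups overlapped. Array by array the mutant minus wild type difference of miR-9 was 1.15 and 0.72 for sapje and -1.05 and -0.44 for sapje-like. The test of that difference between cohorts gave -1.68 ± 0.77 (adjusted p = 0.898), where 0.599% of all probes passed. In this test 9 of the 167 probes had an unadjusted p below 0.05, and 1 of the 7, miR-9, was among them.

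miR-9* was at 0.49 ± 0.30 in sapje and -0.23 ± 0.30 in sapje-like at 5 dpf, with adjusted p-values of 0.633 and 0.890. The other 5 microRNAs lay between -0.28 and 0.28 in the 2 cohorts. Their intervals reached no further than -0.92 and 0.83 on the scale used here. For miR-124 those intervals ran from -0.80 to 0.48 in sapje and from -0.92 to 0.36 in sapje-like. miR-212 was above background in 2 of 8 samples at 5 dpf, so its narrow interval does not bound a mutant effect. miR-132 was not above background in wild type SW replicate 2. Differences of dim probes changed in size with the processing, so the intervals hold for this processing alone.

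At 30 dpf again 0 of 7 passed in sapje (1.2% of all probes), 0 in sapje-like (8.98%) and 0 with both mutants together (13.2%). miR-9*, the passenger arm of the miR-9 hairpin, came closest. It read 7.13, 6.75 and 6.56 in sapje-like and 7.53, 7.72 and 7.53 in wild type SLW, so that all 3 mutant samples lay below all 3 wild types. The same held for miR-124, which differed by only -0.26 (limma, adjusted p = 0.552) and was above background in 1 of the 3 sapje-like samples. In sapje, miR-138 likewise lay below wild type SW in every sample, at -0.17 (limma, adjusted p = 0.984). How many of all tested probes separated in this way was not counted. The difference of miR-9* was -0.81 ± 0.25 (unadjusted p = 0.0061, adjusted p = 0.0539), but miR-9* was above background in 1 of the 3 sapje-like samples. In sapje it was at -0.16 ± 0.25 (adjusted p = 0.984), and the groups overlapped.

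Over both cohorts miR-9* was at -0.49 ± 0.18 (adjusted p = 0.0836) and lower in 5 of 6 arrays, where the differences ran from -0.98 to 0.31. It was 1 of 7 with an unadjusted limma p below 0.05, both here and in sapje-like alone. Of all 167 probes, 50 had such a p here and 46 in sapje-like. The test of a difference between the cohorts gave -0.65 ± 0.35 with an interval from -1.39 to 0.10. Settings moved miR-9* across the threshold: in sapje-like it passed with quantile normalisation within each age (-0.92, adjusted p = 0.0425) and with the empty-spot median subtracted (-1.28, adjusted p = 0.0363). Within the inferred arrays the sapje-like differences were -0.40, -0.96 and -0.98, and miR-9* passed with the shared array as a block (-0.81, adjusted p = 0.0389). Same-numbered samples at 30 dpf were not on the same inferred array, and their residuals correlated at -0.209, -0.149 and -0.0139. The replicate number is thus a doubtful block at this age, and with it miR-9* also passed (-0.82, adjusted p = 0.0269). It was -0.02 (adjusted p = 0.973) with cyclic loess and -0.66 (adjusted p = 0.177) without the 2 dimmest samples. Over both cohorts it was 0.10 with cyclic loess.

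Gut and liver microRNAs varied between samples as well as with genotype at this age. The mean of the 4 on that list was 9.16 to 11.91 in sapje and 7.17 to 7.39 in wild type SW, and 11.59 to 12.16 in sapje-like and 7.17 to 11.85 in wild type SLW. Of the 4, 0 passed in sapje and 1 passed in sapje-like, where it was higher. With both mutants together 3 of the 4 were higher, and miR-122, the main liver microRNA, was higher by 4.60 ± 0.81 (adjusted p = 0.0027). With that mean as a covariate miR-9* was at -0.73 (adjusted p = 0.279) in sapje-like and -0.41 (adjusted p = 0.521) over both cohorts. The mean itself differed with genotype at this age, so this fit cannot separate the covariate from genotype, and no conclusion is drawn from it. Without wild type SLW replicate 8, the wild type sample high in this list, miR-9* was at -0.82 (adjusted p = 0.0557) in sapje-like.

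Among the other 6, miR-9 differed by 0.00 ± 0.45 in sapje and -0.40 ± 0.45 in sapje-like at 30 dpf, and by array from -1.81 to 1.31, higher in 2 of 6. miR-132 was at 0.35 ± 0.25 in sapje and 0.36 ± 0.25 in sapje-like, higher in 5 of 6 arrays and equal in the other, and 0.36 ± 0.18 over both cohorts (adjusted p = 0.201). miR-128 was at 0.38 ± 0.20 in sapje (adjusted p = 0.408) and -0.12 ± 0.20 in sapje-like (adjusted p = 0.717). miR-138 was lower in 5 of 6 arrays, with a difference of -0.18 ± 0.18 over both cohorts (adjusted p = 0.574). In sapje-like it was above background in 1 of 3 samples. Array counts of this kind were not made over all probes. miR-124 was at -0.01 ± 0.25 in sapje and -0.26 ± 0.25 in sapje-like, where it was above background in 1 of 3 samples.

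**Figure D4:**
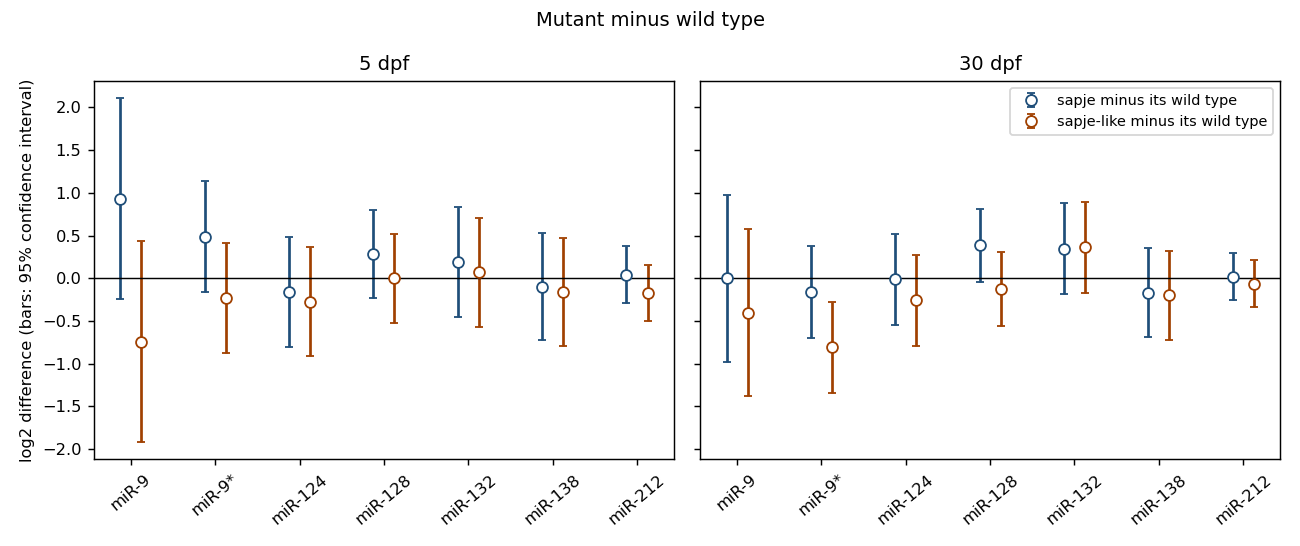
Log2 difference between each mutant and its wild type (y axis, with 95% confidence intervals as bars) for the 7 microRNAs at 5 dpf (left) and 30 dpf (right); all points are open because no difference passed the threshold. The interval of miR-9* in sapje-like at 30 dpf is the only one that lies wholly below 0.

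The mutant effect was also compared between the ages. Over both cohorts 0 of 7 passed, against 7.78% of all probes, and miR-9* alone had an unadjusted p below 0.05 (-0.62 ± 0.28, adjusted p = 0.219). Of all 167 probes, 34 had such an unadjusted p. The other 8 nervous system microRNAs tested likewise gave no call in either mutant at either age. Their median difference with both mutants together was -0.17 at 5 dpf and -0.13 at 30 dpf, against -0.03 and -0.06 over all tested probes.

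The tested probes outside the 7 whose pattern came nearest to each of them over the 20 samples were found by the root mean square difference of dye-adjusted values centred on each probe's mean. For miR-9 these were miR-10a (0.62) and miR-10d (0.73), against a median of 1.87 over all other probes, and miR-9*, within the 7, was nearer still at 0.40. miR-9* had the same 2 neighbours, at 0.55 and 0.65. miR-10a and miR-10d sit in the Hox clusters of vertebrates. For miR-124 the nearest outside the 7 were miR-34 (0.24) and miR-130b (0.35), with miR-138 between them at 0.33, and for miR-138 it was also miR-34 (0.23), followed by miR-19c (0.27).

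miR-128 was nearest to miR-7a (0.22) and miR-20a* (0.25), and miR-132 to miR-730 (0.23) and miR-727 (0.26). The SDs of miR-128 and miR-132 themselves over the 20 samples were 0.26 and 0.46. miR-212 was nearest to miR-34c (0.09) and miR-20a* (0.09), with an SD of its own of 0.10 over the 20 samples. The same measure was also taken with values centred within each age. For miR-9, miR-9* (0.40) was still nearer than any probe outside the 7, where its neighbours became miR-454b (0.44) and miR-454a (0.49). The reverse did not hold. The neighbours of miR-9* outside the 7 became miR-199* (0.27) and miR-363 (0.28), both nearer to it than miR-9. Within the 7 the dim miR-212 (0.38) was nearest to miR-9*. That distance was close to the SD of miR-9* itself (0.39) and miR-212 was nearly flat (SD 0.09), so it shows no shared pattern. miR-124 and miR-138 were nearest to each other at 0.11, with miR-34 (0.14) the nearest outside the 7 for miR-124. All points share their arrays and normalisation, and these distances are descriptions.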

How the data were processed

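Per the file headers, the deposited scanner files hold the mean intensity of each spot in 1 channel with no background removed; image software is not given in the sources used here. The authors' deposited table holds processed intensities on a linear scale. Set against the values computed here, its log2 values gave correlations of 0.988 to 0.993, which settles its direction; its scale and centring stay unknown, and its column medians ran from 95.3 to 144. It was used as an alternative only, with values below 32 set to 32 in the fits and in these correlations. The same floor was applied to spot intensities after the empty-spot median was subtracted. Scanner intensities were corrected by normexp (offset 50), taken to log2, averaged over 12 spots and quantile normalised over the 219 mature probes. A probe was above background when its mean exceeded the empty-spot median (282 to 572 in Cy3, 32.3 to 47.2 in Cy5) by 3 median absolute deviations scaled to SD. A probe was tested if at least 2 samples of some group had it above background, and 52 were left out. The limma 3.58.1 fit (lmFit, eBayes, R 4.3.3) had 8 groups and a dye term, with 11 residual and 2.48 prior degrees of freedom; tests were two-sided. Figures were drawn with matplotlib 3.10.9.

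In data simulated for the 167 probes, independent normal noise was drawn around each probe's mean on the normalised scale. Changes of 1 on the log2 scale were recovered in 93% of changed probes for age over all genotypes. The share was 84.5% for both mutants at 30 dpf and 48% for sapje at 5 dpf. At a change of 2 these shares were 99%, 98.5% and 86.5%. The simulation had few changed probes, no shared arrays and no background floor, so these shares do not cover losses in dim probes. Array sharing was inferred from the residuals of 432 spots of 36 bright probes, where each sample had a mutual best partner of the other dye. The correlations of these pairs ran from 0.423 to 0.854. The weakest pair was wild type SLW replicate 5 with sapje-like replicate 2 at 30 dpf. The next best partner of that wild type sample was at 0.374. Alternatives covered normalisation, background, spot summary, filter, dye term, blocks, samples fitted and a gut and liver covariate. Named were the 7 probes, at most 6 passing probes of other lists per comparison by smallest p, and the 2 nearest probes to each member. The members and lists were chosen with earlier results of these data known.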

Additional observations from a re-analysis of the deposited data

How the results depend on the processing

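Over 5719 recomputed differences of the 7 microRNAs, 5659 stayed on the same side of the threshold, 21 calls were lost, 39 were gained, no called value changed sign, and 282 uncalled values changed sign. The 5 falls with age over all genotypes passed under all 15 alternatives run and without each sample in turn, within -4.01 to -3.21 for miR-9, -4.72 to -3.26 for miR-9*, -2.69 to -1.32 for miR-124, -1.69 to -0.67 for miR-138 and -1.37 to -0.46 for miR-132 over those alternatives. Median scaling moved the median of all probes to -0.33 in that comparison and its calls to 38 higher and 72 lower, against 51 and 50, and miR-212 then passed in wild type SW (-1.11) and in both wild types (-0.62). The alternative of fitting each age alone gives no change with age.

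Replicate numbers do not mark shared fish or arrays in the labels. Residuals from the group and dye fit correlated between same-numbered samples at 0.513 and 0.393 at 5 dpf, where these samples shared an inferred array. With 2 samples per group the residuals mirror each other there, so both pairs of a cohort gave the same value. At 30 dpf, where no such pair shared an inferred array, the values were -0.209, -0.149 and -0.0139. The replicate block used a single correlation of 0.319 for both ages. With the replicate block 1 member passed in sapje-like at 30 dpf, miR-9* (-0.82, adjusted p = 0.0269), and 34 probes in both mutants at that age against 22 without it. In sapje-like at 30 dpf 1 member, again miR-9*, also passed with quantile normalisation within each age, the empty-spot median subtracted, the median over spots (-0.85) and the shared array block (-0.81, adjusted p = 0.0389). With both mutants at 30 dpf 1 member passed with the empty-spot median subtracted. All probes passing there numbered 1 with the gut and liver covariate, 8 with each age fitted alone or only the groups compared, and 12 without the 2 dimmest samples, an alternative added after seeing the data. Between cohorts at 5 dpf 1 member, miR-124, passed with quantile within each age, the empty-spot median subtracted, the median over spots and no dye term, and 1 passed in the age change between cohorts with median scaling. The causes were not tested.

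With each sample left out in turn, members passing ranged from 5 to 5 for age over all genotypes and both wild types, 4 to 5 in both mutants, sapje and wild type SW, and 2 to 4 in wild type SLW and sapje-like. They ranged from 0 to 1 for sapje-like and both mutants at 30 dpf, 0 to 2 between cohorts at 5 dpf, 0 to 3 between wild types at 5 dpf and in the age change between cohorts, and 0 to 0 in the others. All probes passing ranged from 97 to 114 for age and 12 to 42 for both mutants at 30 dpf. A lone remaining sample is assumed to vary like the other groups. The call of miR-132 in both mutants was lost with 3 alternatives and that in sapje with 3. Dim probes limit precision: miR-212 was rarely above background.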

Other observations

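The genotype order of the 7 microRNAs within 30 dpf had few steps without overlap. For miR-124, wild type SLW samples (6.97, 7.10 and 7.0) lay above all 3 sapje samples (6.84, 6.84 and 6.88), all 3 wild type SW samples (6.83, 6.77 and 6.90) and all 3 sapje-like samples (6.83, 6.86 and 6.72). These miR-124 readings lay near the dim end of the scale, with 1 of the 3 sapje-like samples above background. The differences of wild type SLW from wild type SW and from sapje-like at 30 dpf did not pass. How many of all tested probes showed such a step was not counted. For miR-9, 2 samples stood above the rest of that age, wild type SW replicate 4 at 9.68 and sapje replicate 2 at 9.27. They were on different inferred arrays. For miR-9* the same 2 samples read 7.93 and 7.72, and the second of these did not stand apart: wild type SLW replicate 5 also read 7.72. In the authors' deposited table those samples read 758 and 621 for miR-9, and the other 10 samples of that age read from 102 to 295.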
